A study of Mus musculus with 26 samples.

Results

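Matrix metalloproteinases and their tissue inhibitors were described in lungs of mice given multiwalled carbon nanotubes. The members were 6 metalloproteinases (Mmp2, Mmp3, Mmp12, Mmp13, Mmp14 and Mmp19) and 4 inhibitors (Timp1, Timp2, Timp3 and Timp4), chosen by gene symbol. The choice was made with earlier results of these data known. All 10 passed the filter on low signal, on 12 probes, out of 22950 features tested.

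Matrix metalloproteinases are zinc enzymes that cut collagens, elastin, proteoglycans and other proteins outside the cell. Most are secreted as inactive precursors, and the TIMP proteins block the active site of the mature enzymes. In lung they are known from emphysema, fibrosis and the clearing of matrix during repair, with macrophages, fibroblasts and epithelium as sources.

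The study ran 25 MutaMouse mice, a transgenic reporter strain, in 5 groups of 5 on 26 two-colour Agilent arrays. NM-401 high and NM-401 low lungs had received 128 and 42.7 µg per mouse of NM-401 nanotubes, and Mitsui high and Mitsui low lungs the same amounts of Mitsui XNRi-7 nanotubes. The material was suspended in mouse serum and instilled into the trachea once a week for 4 weeks, in mice about 12 weeks old. Control animals were given olive oil by gavage, per the treatment protocol, while the series design names a vehicle control, and neither source gives them an instillation of serum. If they had none, exposed against control cannot tell the nanotubes apart from the serum, the route or the procedure. Lungs were taken 56 days after the last dose and RNA came from random sections, so every value is a whole-tissue level. In such bulk samples fewer cells of a type and less RNA per cell cannot be told apart.

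Each value is a log2 ratio of Cy5 over Cy3 signal, Cy5 marking the lung RNA of 1 animal and Cy3 a common mouse reference RNA. A ratio below 0 means less signal than in the reference RNA, and ratios of different genes are not set against each other. A gene was called when its adjusted p in limma, a linear model fitted over all features, was under 0.05. Errors of changes are standard errors (SE) and those of group means are SD, with n = 5 animals in each group. The labels name female mice and the design text male mice. NM-401 high animal 2 stood apart in Xist, which did not clear background on either probe there and did in the other 24 animals. The Y-linked genes Ddx3y and Kdm5d cleared background in 0 of 25 animals, that one included, and Eif2s3y in 22, so the sex of this animal is not settled by these genes. The main results are therefore also given without it. NM-401 high had no array on slide 2 of the 4 slides, and the other groups had arrays on every slide.

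The 3 members Mmp13, Mmp12 and Mmp3 lie in 1 cluster of metalloproteinase genes on mouse chromosome 9. Mmp13 and Mmp12 rose in every exposure and Mmp3 was called in none, and their upstream sequences are shown so that these neighbours can be compared. RefSeq promoters (build GRCm38.p6, 250 bases before the start, plus strand) were available for 8 of the 10 members in 9 windows, 2 of them for Mmp12. The capitals mark matches to the AP-1 letters TGANTCA, searched on both strands.
Mmp13, chr9:7272264-7272513: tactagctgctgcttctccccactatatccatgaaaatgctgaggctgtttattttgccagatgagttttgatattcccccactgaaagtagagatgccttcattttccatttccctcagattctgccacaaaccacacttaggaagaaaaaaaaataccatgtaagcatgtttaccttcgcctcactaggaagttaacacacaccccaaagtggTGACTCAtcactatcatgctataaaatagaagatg
Mmp12, first start, chr9:7344147-7344396: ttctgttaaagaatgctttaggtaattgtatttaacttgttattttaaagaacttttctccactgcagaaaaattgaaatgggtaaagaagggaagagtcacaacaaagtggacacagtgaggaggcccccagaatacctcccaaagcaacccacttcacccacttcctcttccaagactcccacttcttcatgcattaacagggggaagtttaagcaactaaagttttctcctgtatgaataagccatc
Mmp12, second start, part of the window, chr9:7347318-7347347: tgacatcaacagTGAGTCAgatagaggatt
Mmp3, chr9:7445572-7445821: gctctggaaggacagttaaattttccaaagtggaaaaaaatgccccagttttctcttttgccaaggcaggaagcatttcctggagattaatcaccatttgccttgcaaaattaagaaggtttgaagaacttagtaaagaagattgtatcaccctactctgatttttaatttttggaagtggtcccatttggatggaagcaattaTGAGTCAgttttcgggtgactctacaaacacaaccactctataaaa

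The AP-1 match began 35 bases before the start of Mmp13, 46 before that of Mmp3 and 44 before the second start of Mmp12. It was absent from the window of the first start of Mmp12 and from those of Mmp14, Timp1, Timp2, Timp3 and Timp4. These letters stood in 3 of the 9 member windows, against 6.75% of 32851 mouse promoter windows of this length. The letters AGGAAG, the PEA3 motif of ETS factors, stood in 7 of the 9 windows and in 29.5% of all. These 7 included the windows of Mmp3, which was not called, and of Timp3, which was lower in every exposure. The STAT letters TTCNNNGAA stood in 0 of the 9 windows and in 7.02% of all. Both a gene that rose (Mmp13) and one that was not called (Mmp3) thus carried the AP-1 letters close to the start. Such a match is a description of the sequence and not a measured binding site.

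In NM-401 high lungs 8 of the 10 members were called, 6 higher and 2 lower (1 of the 2 being Timp2, whose other probe was called higher), where 34.8% of all features were called, 18.4% higher and 16.4% lower. NM-401 low, Mitsui high and Mitsui low lungs had 7 members called each, 6 higher and 1 lower. Of all features 16.9% were called in NM-401 low (8.95% higher, 7.98% lower), 23.8% in Mitsui high (12.7% higher, 11.1% lower) and 21% in Mitsui low (10.6% higher, 10.4% lower). The 5 members higher in every exposure were Mmp12, Mmp13, Mmp14, Mmp19 and Timp1, and Timp3 was lower in every one. In each exposure 7 members had no overlap between exposed and control animals, against 22.5% of features for NM-401 high, 11.6% for NM-401 low, 14.6% for Mitsui high and 16.1% for Mitsui low. As the members were chosen with earlier results of these data known, setting their counts against all features is a description and not a test. The median log2 change of the 10 members was 0.84, 0.61, 0.70 and 0.70 in the same order of exposures, while that of all features lay within 0.01 of 0. Replacing loess normalisation by plain median centring of each array left 5 members called in NM-401 high and 2 in each other exposure, and 1065, 62, 121 and 74 features in that order. It left Mmp12 and Mmp19 called in all 4 exposures and Timp3 in none.

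**Figure D1:**
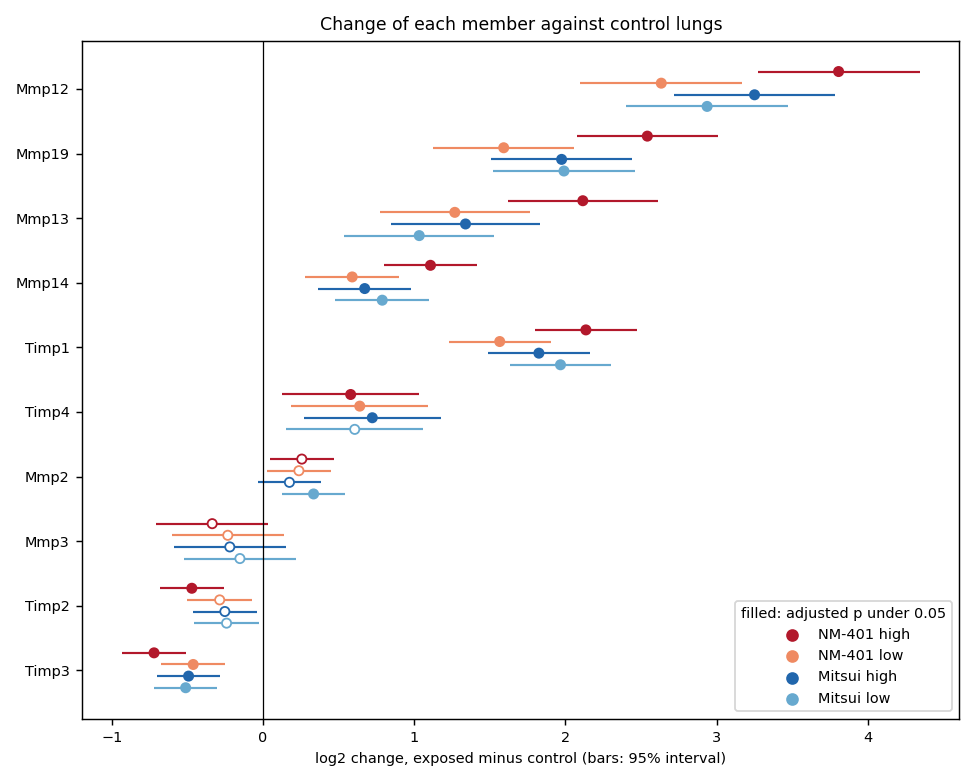
Log2 change of each member against control lungs, with NM-401 high, NM-401 low, Mitsui high and Mitsui low drawn from top to bottom within each gene; bars are 95% intervals of the limma fit and filled points have an adjusted p under 0.05. Mmp12, on its brighter probe, lies farthest to the right in all 4 exposures, between 2.63 and 3.81, and Timp3 lies left of 0 in all 4, between -0.72 and -0.46.

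Mmp12, the macrophage elastase, had the largest change of the 10 members on its brighter probe, though not on the mean of its 2 probes. Its log2 ratios were 3.81, 3.70, 3.57, 3.65 and 4.06 in NM-401 high lungs and 2.03, 3.49, 3.44, 1.78 and 2.18 in NM-401 low lungs. They were 3.47, 2.90, 2.62, 3.22 and 3.78 in Mitsui high lungs and 2.68, 2.98, 2.84, 2.92 and 3.01 in Mitsui low lungs, against -0.09, 0.07, -0.05, -0.38 and 0.21 in control lungs. Every exposed animal lay far above every control animal, and 2 NM-401 low animals lay close to the NM-401 high animals while the other 3 were lower. By limma the change was 3.81 ± 0.26 (SE) in NM-401 high (14.0-fold, 95% interval 9.65 to 20.3, adjusted p = 4.7e-10) and 2.63 ± 0.26 in NM-401 low (adjusted p = 4.8e-07). In Mitsui high it was 3.25 ± 0.26 (adjusted p = 1.5e-08) and in Mitsui low 2.94 ± 0.26 (adjusted p = 5.6e-08). Mmp12 was well above background in 5 of 5 animals of each exposed group, against 1 of 5 control animals, so the size of the change rests on a control level near the limit of detection. The background-subtracted ratios of the scanner software gave 5.09 for NM-401 high and 4.63 for Mitsui low. A second, dimmer Mmp12 probe was well above background in 5, 2, 4 and 3 animals of NM-401 high, NM-401 low, Mitsui high and Mitsui low, against 0 control animals. On it Mmp12 was at least 1.93-fold higher in NM-401 high (log2 ratio means 1.11 against 0.15, limma adjusted p over probes 6.0e-05), from Cy5 levels set against the lowest signal that cleared background on each control array. In NM-401 low and Mitsui low, with only 2 and 3 animals above background, no fold is given for this probe. The log2 change there was 0.44 in NM-401 low (limma adjusted p = 0.068, not called) and 0.49 in Mitsui low (0.034). In Mitsui high, where the Cy5 bound lay above the fold of the ratios, only the log2 change of 0.52 is given (adjusted p = 0.023). The mean of both probes put Mmp12 at 2.38, 1.54, 1.89 and 1.71 in NM-401 high, NM-401 low, Mitsui high and Mitsui low, all called and each below the change of Mmp19. The probes ran together over the animals, with a correlation of 0.83 over 25 animals, given as a description.

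Mmp13, a collagenase that cuts fibrillar collagen, rose in all 4 exposures as well. Its log2 ratios were 0.40, 0.36, 1.10, 1.28 and 1.31 in NM-401 high lungs and -0.62, 0.26, 0.81, -0.45 and 0.23 in NM-401 low lungs. They were 0.43, -0.18, -0.26, -0.19 and 0.78 in Mitsui high lungs and -0.16, -0.49, -0.17, 0.02 and -0.15 in Mitsui low lungs, against -1.30, -1.06, -1.33, -1.36 and -1.07 in control lungs. No exposed animal reached down to the control range, although the spread within NM-401 low (SD 0.58) was wide. The change was 2.11 ± 0.24 in NM-401 high (4.33-fold, 3.07 to 6.10, adjusted p = 3.4e-07) and 1.27 ± 0.24 in NM-401 low (adjusted p = 0.00081, limma). It was 1.34 ± 0.24 in Mitsui high (adjusted p = 0.00026) and 1.03 ± 0.24 in Mitsui low (adjusted p = 0.0031). As for Mmp12, 5 of 5 animals of each exposed group were well above background, against 1 of 5 control animals. The scanner software's ratios put the NM-401 high change at 4.22. Under median centring Mmp13 was no longer called in NM-401 low (adjusted p = 0.258), Mitsui high (0.135) or Mitsui low (0.494).

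Mmp19, an enzyme that cuts basement membrane proteins, was well above background in all 25 animals. Its log2 ratios were 2.63, 2.47, 2.19, 1.82 and 2.34 in NM-401 high lungs and 1.03, 2.30, 1.28, 0.60 and 1.50 in NM-401 low lungs. They were 2.16, 1.99, 1.09, 1.41 and 1.96 in Mitsui high lungs and 1.53, 1.62, 2.00, 1.72 and 1.82 in Mitsui low lungs, against -0.26, -0.21, -0.32, -0.19 and -0.29 in control lungs. The controls sat within a narrow band (SD 0.055) and every exposed animal lay above it. Mmp19 rose by 2.54 ± 0.23 in NM-401 high (5.82-fold, 4.21 to 8.04, adjusted p = 1.3e-08), 1.59 ± 0.23 in NM-401 low, 1.97 ± 0.23 in Mitsui high and 1.99 ± 0.23 in Mitsui low, with adjusted p of 4.8e-05, 1.6e-06 and 1.9e-06 for the last 3 by limma. It was called in all 34 alternative analyses of each exposure.

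Mmp14 is a membrane-bound enzyme that cuts collagen at the cell surface and activates the precursor of Mmp2. Its log2 ratios ran from -0.32 to 0.46 in NM-401 high, -0.66 to -0.13 in NM-401 low, -0.79 to 0.23 in Mitsui high and -0.29 to -0.16 in Mitsui low, against -1.12 to -0.85 in control. Exposed and control animals did not overlap in any exposure, and the nearest were a Mitsui high animal at -0.79 and control animals at -0.85. The change was 1.11 ± 0.15 in NM-401 high (2.15-fold, 1.74 to 2.67, adjusted p = 3.7e-06, limma). It was 0.59 ± 0.15 in NM-401 low (adjusted p = 0.0084), 0.67 ± 0.15 in Mitsui high (0.0019) and 0.79 ± 0.15 in Mitsui low (0.00055). Median centring kept the NM-401 high call of Mmp14. It lost those in NM-401 low (adjusted p = 0.994, limma), Mitsui high (0.824) and Mitsui low (0.707).

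Mmp2, the gelatinase whose precursor Mmp14 activates, had changes of 0.17 to 0.33 on the log2 scale. Its log2 ratios averaged 0.22 ± 0.15 (SD) in NM-401 high, 0.20 ± 0.14 in NM-401 low, 0.14 ± 0.11 in Mitsui high and 0.30 ± 0.26 in Mitsui low, against -0.04 ± 0.11 in control. Exposed and control animals overlapped in all 4 exposures. Mmp2 was called only in Mitsui low (0.33 ± 0.10, 1.26-fold, adjusted p = 0.021, higher than the control mean in 4 of 5 animals). That call was lost without Mitsui low animal 2 (adjusted p = 0.075), animal 3 (0.055) or animal 5 (0.054) and without control animal 4 (0.057), and with the scanner software's ratios (0.067). In NM-401 high the change of 0.26 missed the threshold (adjusted p = 0.054), but reached it with slide as a block (0.040) and without animal 2 (0.32, adjusted p = 0.018). With slide as a block Mmp2 was also called in NM-401 low (0.27, adjusted p = 0.027).

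Mmp3, stromelysin 1, which cuts proteoglycans and activates other metalloproteinase precursors, was called in none of the 4 exposures (0 of 4 at an unadjusted p under 0.05). Its log2 ratios averaged -0.87 ± 0.38 (SD) in NM-401 high, -0.77 ± 0.29 in NM-401 low, -0.76 ± 0.29 in Mitsui high and -0.69 ± 0.10 in Mitsui low, against -0.54 ± 0.37 in control. Control animals 4 and 5 at -0.15 and -0.14 were higher than the other 3, which lay between -0.92 and -0.69 among the exposed animals. The 95% interval of the change was -0.71 to 0.03 in NM-401 high and -0.52 to 0.22 in Mitsui low. With slide as a block Mmp3 was called lower in NM-401 high (-0.38, adjusted p = 0.047).

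**Figure D2:**
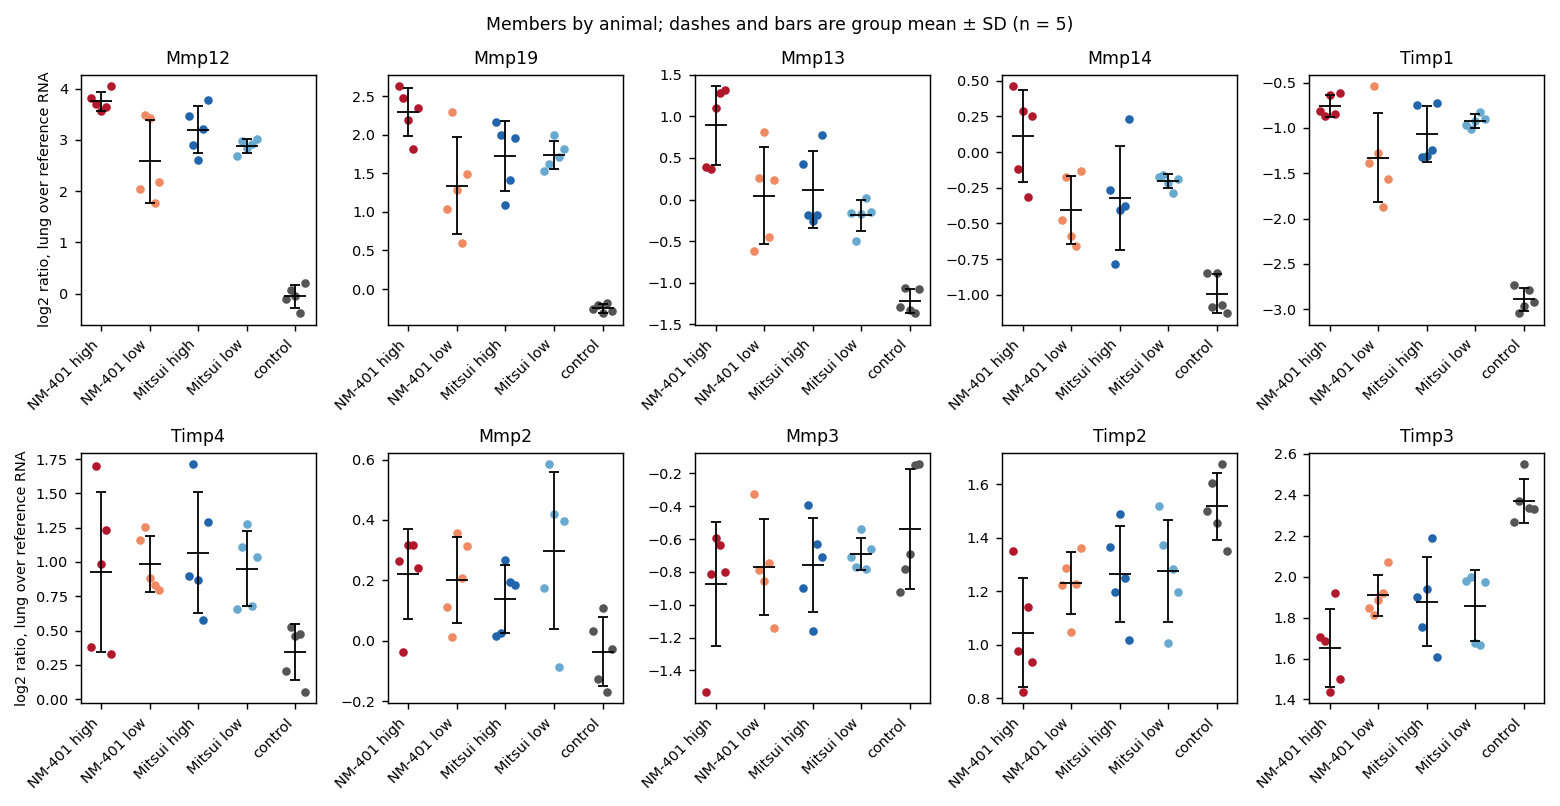
Log2 ratio of lung over reference RNA for each of the 10 members in NM-401 high, NM-401 low, Mitsui high, Mitsui low and control lungs; each point is an animal, the long dash and bars are the group mean and SD (n = 5), and each gene has its own vertical scale. Mmp12, Mmp19, Mmp13, Mmp14 and Timp1 show every exposed animal above all controls, and Timp3 every exposed animal below all controls.

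Timp1, a secreted inhibitor of most soluble metalloproteinases, was the inhibitor with the largest change. Its log2 ratios were -0.82, -0.87, -0.64, -0.85 and -0.61 in NM-401 high lungs and -1.39, -0.54, -1.28, -1.87 and -1.56 in NM-401 low lungs. They were -0.74, -1.32, -1.31, -1.24 and -0.72 in Mitsui high lungs and -0.97, -1.01, -0.93, -0.82 and -0.90 in Mitsui low lungs, against -2.73, -3.05, -2.96, -2.79 and -2.92 in control lungs. All 20 exposed animals lay above the controls, NM-401 low animal 4 nearest to them. Timp1 rose by 2.14 ± 0.16 in NM-401 high (4.39-fold, 3.48 to 5.55, adjusted p = 1.9e-09) and by 1.57 ± 0.16 in NM-401 low (adjusted p = 9.9e-07, limma). The rise was 1.82 ± 0.16 in Mitsui high (adjusted p = 7.1e-08) and 1.97 ± 0.16 in Mitsui low (adjusted p = 2.0e-08). Median centring kept the NM-401 high call of Timp1. It lost those in NM-401 low (adjusted p = 0.398, limma), Mitsui high (0.128) and Mitsui low (0.114).

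Timp3, the inhibitor that binds to the matrix and also blocks ADAM17 and aggrecanases, moved the opposite way. Its log2 ratios were 1.70, 1.69, 1.44, 1.92 and 1.50 in NM-401 high lungs and 1.85, 1.81, 1.89, 1.92 and 2.07 in NM-401 low lungs. They were 1.90, 1.75, 1.94, 2.19 and 1.61 in Mitsui high lungs and 1.98, 2.00, 1.68, 1.67 and 1.98 in Mitsui low lungs, against 2.27, 2.37, 2.55, 2.33 and 2.33 in control lungs. All exposed animals lay below all controls. Timp3 fell by 0.72 ± 0.10 on the log2 scale in NM-401 high (1.65-fold lower, adjusted p = 6.7e-06) and by 0.46 ± 0.10 in NM-401 low (adjusted p = 0.0030, limma). It fell by 0.49 ± 0.10 in Mitsui high (adjusted p = 0.0010) and by 0.51 ± 0.10 in Mitsui low (adjusted p = 0.00085). Under median centring the direction stayed negative in all 4 exposures, between -0.71 and -0.39, and the calls were lost.

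Timp2 both inhibits metalloproteinases and, bound to Mmp14, helps to activate the Mmp2 precursor, and its 2 probes moved in opposite directions. On the brighter probe the log2 ratios were 1.35, 0.98, 0.83, 1.14 and 0.93 in NM-401 high lungs, against 1.50, 1.60, 1.45, 1.67 and 1.35 in control lungs. On the dimmer probe they were 0.95, 0.41, 1.03, 0.89 and 0.96 in NM-401 high lungs, against 0.35, 0.06, 0.31, -0.08 and 0.33 in control lungs. NM-401 high and control animals did not overlap on either probe. On the brighter probe they all but touched, with the highest NM-401 high animal at 1.350 and the lowest control at 1.352. The brighter probe fell by 0.47 ± 0.10 in NM-401 high (adjusted p = 0.00092, limma) and was not called in NM-401 low (-0.29, adjusted p = 0.059), Mitsui high (-0.25, 0.080) or Mitsui low (-0.24, 0.103). The dimmer probe rose by 0.66 ± 0.12 in NM-401 high (adjusted p over probes 0.00016) and by 0.36 ± 0.12 in Mitsui low (0.039), and was not called in NM-401 low (0.23, 0.216) or Mitsui high (0.26, 0.133). The mean of the probes gave 0.09 in NM-401 high (adjusted p = 0.390). With slide as a block the brighter probe was called lower in the other 3 exposures as well (adjusted p = 0.019 in NM-401 low, 0.028 in Mitsui high and 0.044 in Mitsui low). Neither probe was saturated on any array, and both were well above background in every animal. Among 3757 genes with 2 or more kept probes, 29 (0.772%) had probes called both ways in NM-401 high. The probe sequences were not used here, so which transcripts each probe reads was not tested, and no single direction is given for Timp2.

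**Figure D3:**
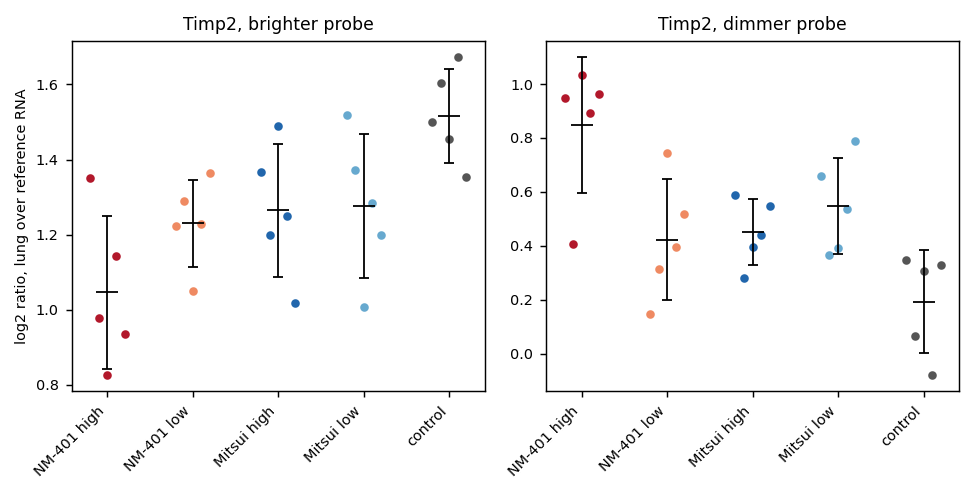
Log2 ratio of lung over reference RNA on the brighter (left) and dimmer (right) Timp2 probe in NM-401 high, NM-401 low, Mitsui high, Mitsui low and control lungs, with group mean and SD (n = 5 animals). NM-401 high averages 1.05 against 1.52 in control on the brighter probe, and 0.85 against 0.19 on the dimmer probe.

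Timp4, an inhibitor best known from heart and fat, was higher in exposed lungs with a wide spread. Its log2 ratios were 0.38, 1.70, 0.98, 1.23 and 0.33 in NM-401 high lungs and 1.16, 1.25, 0.88, 0.83 and 0.80 in NM-401 low lungs. They were 0.90, 1.71, 0.87, 0.58 and 1.29 in Mitsui high lungs and 0.66, 1.11, 1.28, 0.68 and 1.04 in Mitsui low lungs, against 0.21, 0.53, 0.46, 0.48 and 0.06 in control lungs. NM-401 high animals 1 and 5 lay within the control range, and the other 3 exposures did not overlap with control. By limma the change was called in NM-401 high (0.58 ± 0.22, adjusted p = 0.042), NM-401 low (0.64 ± 0.22, 0.046) and Mitsui high (0.72 ± 0.22, 0.018), and missed the threshold in Mitsui low (0.61 ± 0.22, 0.051). The NM-401 high call was lost without animal 2 (0.39, adjusted p = 0.154), without animal 3 (0.076) or 4 (0.103), without control animals 1, 3, 4 or 5 (0.052 to 0.102) and with slide as a block (0.067). In NM-401 low it was lost in 14 of 25 fits that each left out 1 animal, and in both NM-401 groups with the scanner software's ratios and without a filter. In Mitsui high it was lost without Mitsui high animal 2 (0.061) or control animal 5 (0.050). NM-401 high animal 2 and control animal 2, each the highest in Timp4 of its group, were also the 2 animals with the highest fat cell markers. The summed Cy5 level of 7 such markers ran from 3062 to 88170 in NM-401 high and reached at most 5320 in the other 3 exposures, against 3806 to 185900 in control. Their part in the Timp4 values was not tested.

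Without NM-401 high animal 2, the NM-401 high changes of Mmp12, Mmp19, Mmp13, Mmp14 and Timp1 were 3.82, 2.50, 2.25, 1.17 and 2.16. Those of Timp3 and Timp2 (brighter probe) were -0.73 and -0.45. All 7 stayed called, and again 8 members were called, with Mmp2 in and Timp4 out. Within slides, Mmp2, Mmp12, Mmp13, Mmp14, Mmp19 and Timp1 were higher and Timp3 lower than control on all slides that held both groups, 3 for NM-401 high and 4 for each other exposure. The smallest such within-slide difference of Mmp12 was 1.72, in NM-401 low. For Timp3 they ran from -0.85 to -0.32 over the 4 exposures. Timp4 was higher on 2 of 3 slides in NM-401 high, and the brighter Timp2 probe was lower on 3 of 4 slides in Mitsui high.

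The high dose was next set against the low dose of each material. For NM-401, 4 members were called, all higher at the high dose, against 3.78% of all features, 2.65% higher and 1.13% lower. Mmp12 was higher by 1.17 ± 0.26 (2.25-fold, adjusted p = 0.015, limma), Mmp19 by 0.95 ± 0.23 (adjusted p = 0.021), Mmp13 by 0.85 ± 0.24 (adjusted p = 0.047) and Timp1 by 0.57 ± 0.16 (adjusted p = 0.0498). Mmp12 was the only member whose NM-401 high animals (3.57 to 4.06) did not overlap the NM-401 low animals (1.78 to 3.49), against 3.66% of all features. Mmp14 differed by 0.52 ± 0.15 and missed the threshold (adjusted p = 0.052). These calls stood close to the threshold: leaving out single animals left 0 to 5 members called. The calls were lost without NM-401 high animal 5, NM-401 low animal 1 or NM-401 low animal 4, each of which left 0 members. Timp1 lost its call in 19 of 25 such fits and Mmp13 in 17, while Mmp12 lost it in 3 and Mmp19 in 4. With slide as a block Mmp13 was lost (adjusted p = 0.063) and Mmp14 gained (0.028). The scanner software's ratios left 1 member called, with the Mmp12 call lost, and median centring left 0. Without NM-401 high animal 2, Mmp12, Mmp19, Mmp13, Mmp14 and Timp1 were called (1.19, 0.90, 0.98, 0.58 and 0.60).

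For Mitsui XNRi-7 no member was called between high and low dose by limma (0 of 10, with 0 at an unadjusted p under 0.05), where 0% of all features were called and 1245 had an unadjusted p under 0.05. The difference was 0.31 for Mmp12 (95% interval -0.22 to 0.85), 0.31 for Mmp13 (-0.19 to 0.80) and -0.02 for Mmp19 (-0.48 to 0.45). It was -0.12 for Mmp14 (-0.43 to 0.19) and -0.14 for Timp1 (-0.48 to 0.19). The intervals for Mmp12 and Mmp13 include a difference of over 0.5, so the fit does not show equal levels. SDs were 0.46 for Mmp12 and 0.31 for Timp1 in Mitsui high, against 0.13 and 0.073 in Mitsui low.

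The materials were then compared at equal dose. At the high dose 0 of 10 members were called (6 at an unadjusted p under 0.05), against 0.789% of all features. NM-401 high minus Mitsui high was 0.56 ± 0.26 for Mmp12 (adjusted p = 0.268), 0.78 ± 0.24 for Mmp13 (0.099), 0.57 ± 0.23 for Mmp19 (0.194) and 0.43 ± 0.15 for Mmp14 (0.138), by limma. Timp1 differed by 0.31 ± 0.16 (0.331). Mmp13 passed the threshold without NM-401 high animal 2 (adjusted p = 0.040) or Mitsui high animal 5 (0.032), and Mmp14 without Mitsui high animal 5 (0.025). At the low dose 0 members were called (1 at an unadjusted p under 0.05), as were 0% of all features (1286 at an unadjusted p under 0.05). There NM-401 low minus Mitsui low was -0.30 for Mmp12 (95% interval -0.84 to 0.23), 0.24 for Mmp13 (-0.26 to 0.73), -0.40 for Mmp19 (-0.87 to 0.07), -0.20 for Mmp14 (-0.51 to 0.11) and -0.40 for Timp1 (-0.74 to -0.07).

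The dose step of NM-401 minus that of Mitsui XNRi-7 tests whether the steps differed. It was 0.86 ± 0.37 for Mmp12 (adjusted p = 0.319), 0.97 ± 0.32 for Mmp19 (0.205), 0.63 ± 0.21 for Mmp14 (0.207) and 0.71 ± 0.23 for Timp1 (0.193) by limma. For Mmp13 it was 0.54 ± 0.34 (0.548). Of the 10 members 0 were called and 4 had an unadjusted p under 0.05, against 0.0349% of all features called. The steps of the materials were thus not shown to differ for any member, although 4 were called for NM-401 and 0 for Mitsui XNRi-7. Timp1 passed the threshold without NM-401 low animal 2 (adjusted p = 0.040).

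**Figure D4:**
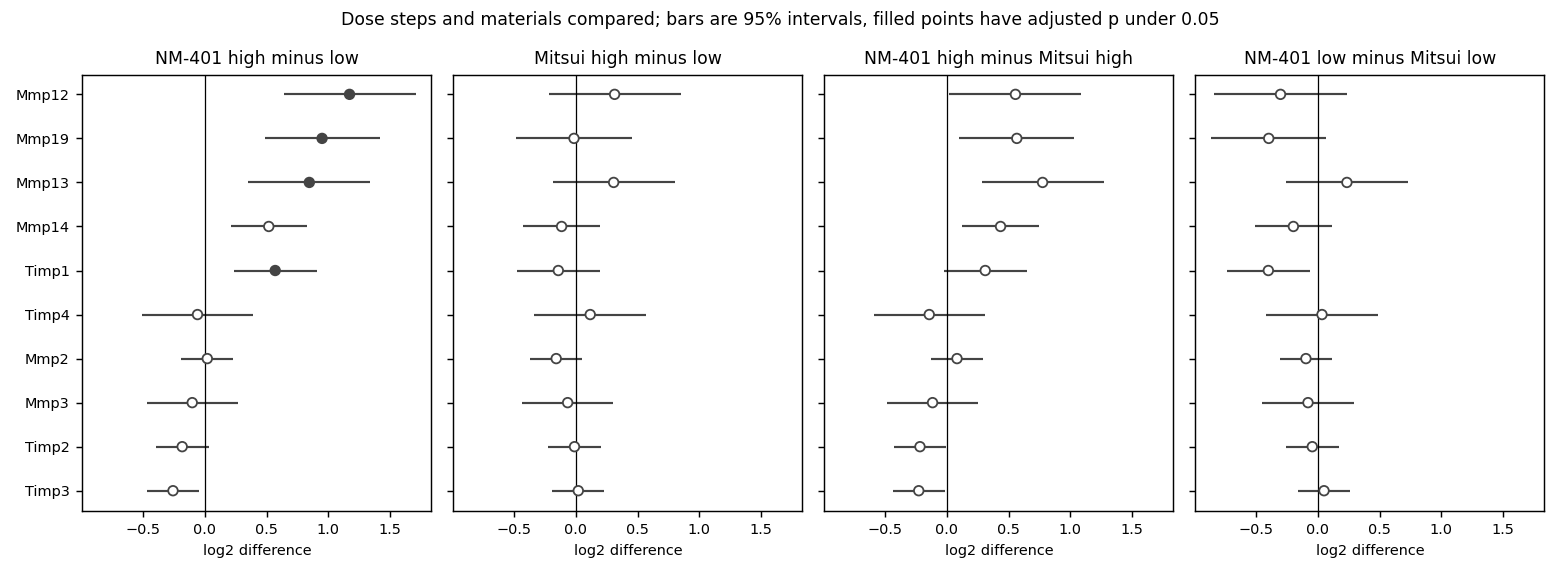
Log2 difference of each member for the NM-401 dose step, the Mitsui XNRi-7 dose step, NM-401 against Mitsui XNRi-7 at the high dose and at the low dose; bars are 95% intervals of the limma fit and filled points have an adjusted p under 0.05. The 4 filled points, Mmp12, Mmp19, Mmp13 and Timp1, are all in the NM-401 dose step.

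In order of mean level, NM-401 high stood first for Mmp12, Mmp13, Mmp14, Mmp19 and Timp1 and control last. For Mmp14, Mmp19 and Timp1 the order was NM-401 high, Mitsui low, Mitsui high, NM-401 low and control. For Mmp12 it was NM-401 high, Mitsui high, Mitsui low, NM-401 low and control. Mitsui high and Mitsui low were not called different for any of these genes. Neighbours that differ in both material and dose, such as Mitsui high and NM-401 low, were not tested, and their ranges overlapped for Mmp14, Mmp19 and Timp1. Over the 25 animals Mmp12 and Timp1 had a correlation of 0.97, and 0.74 once each group's mean was removed. Mmp19 and Timp1 had 0.96 and 0.72, and Mmp12 and Mmp13 had 0.89 and 0.67. Timp3 ran against Timp1, at -0.86 over all animals and -0.43 within groups. All these correlations share the arrays, the reference RNA and the group differences, and are given without a test.

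Genes whose ratios were most like a member's over the 25 animals were sought among 14782 named genes, the 3 nearest for each. For Mmp12 they were Atp6v0d2, a subunit of the vacuolar proton pump, Lhfpl2 and Rnf128, with correlations of 0.98, 0.98 and 0.98. For Mmp13 they were Rgs1, Ctss (cathepsin S, a lysosomal protease) and Lat2, at 0.96, 0.96 and 0.95. Both sets stayed correlated within groups, at 0.70 to 0.82 for Mmp12 and 0.80 to 0.88 for Mmp13. Mmp19 was nearest to Ptgs1 (cyclooxygenase 1), Chl1 and Tuba1c, at 0.97, 0.96 and 0.96. Mmp14 was nearest to Fbxo44, Npc2 and Rundc3a, at 0.95, 0.94 and 0.94. Timp1 was nearest to Il34 (a ligand of the macrophage growth factor receptor), Rnf128 and Cyp7b1, at 0.98, 0.98 and 0.97, so Rnf128 stood on the lists of both Mmp12 and Timp1. Timp3 was nearest to Wwc2, Zbtb20 and Ripor1 (0.92, 0.91 and 0.91). Timp2, on its brighter probe, was nearest to Nfic, Ctdspl and Tmbim1 (0.92, 0.90 and 0.89). The nearest genes of Timp4 were Slc5a9, Cfap69 and Dyrk3 (0.88, 0.86 and 0.86). Members that changed little had looser neighbours: Pla2g6, Ap1m1 and Cpsf3 for Mmp2 (0.79, 0.78 and 0.75) and Acbd5, Tbc1d32 and Gopc for Mmp3 (0.82, 0.81 and 0.79).

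Markers of macrophages, which are a known source of Mmp12, were mostly called higher in exposed lungs. Of 17 measured markers 12 were called higher and 1 lower in NM-401 high, 11 and 0 in NM-401 low, 9 and 1 in Mitsui high, and 10 and 1 in Mitsui low, with medians of 1.22, 0.91, 0.77 and 0.80. Of all features 18.4%, 8.95%, 12.7% and 10.6% were called higher in the same order. Their summed Cy5 level ran from 156500 to 214600 in NM-401 high, 106000 to 160000 in NM-401 low, 115300 to 166600 in Mitsui high and 138200 to 159400 in Mitsui low, against 66570 to 84620 in control. Every exposed animal had a higher sum than every control. No marker was below background in all animals of a group, and Cd68 and Ly6c2 were not measured. Within groups the mean ratio of these markers had a correlation of 0.76 with Mmp12, 0.76 with Mmp13, 0.59 with Timp1, 0.49 with Mmp14 and 0.46 with Mmp19. With Timp4, also higher in exposed lungs, it was -0.27. The part of macrophage number in the changes of these members was not tested.

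Markers of fibroblasts with smooth muscle, and of endothelium, were more often called lower than higher in exposed lungs, where Timp3 was lower. Their mean ratios had correlations of 0.75 and 0.72 with Timp3 over all animals, and of 0.34 and 0.32 within groups. Of 16 fibroblast and smooth muscle markers 0 were called higher and 9 lower in NM-401 high, 1 and 6 in NM-401 low, 2 and 5 in Mitsui high, and 0 and 7 in Mitsui low. Of all features 16.4%, 7.98%, 11.1% and 10.4% were called lower in the same order. The median changes of these markers were -0.53, -0.25, -0.09 and -0.29. Their summed Cy5 level was 74120 to 114400 in NM-401 high, 130500 to 179900 in NM-401 low, 121100 to 158800 in Mitsui high and 113100 to 153000 in Mitsui low, against 192700 to 222700 in control. Of 12 endothelial markers 7 were called lower in NM-401 high and 4 in each other exposure, with 0 higher. Median changes of the endothelial markers were -0.44 in NM-401 high, -0.24 in NM-401 low, -0.15 in Mitsui high and -0.17 in Mitsui low. Their sum was 121600 to 154600 in NM-401 high, 162500 to 263600 in NM-401 low, 168200 to 219400 in Mitsui high and 171700 to 198400 in Mitsui low, against 248200 to 297200 in control. NM-401 low overlapped control and the other 3 exposures did not. No marker of either list was below background in all animals of a group. Whether these cells account for the Timp3 values was not tested.

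The genes around Mmp12 on chromosome 9 run in the order Mmp13, Mmp12, Mmp1b, Mmp3, Mmp1a, Mmp10, Mmp8, Mmp27, Mmp20 and Mmp7. Mmp10, a stromelysin close to Mmp3 in sequence, was well above background in 5 NM-401 high animals, against 0 control animals, with log2 ratio means of 0.94 against -0.46 (change 1.41 ± 0.20, adjusted p = 6.9e-06, limma). The control level is below background and no fold is given there. In Mitsui high, with 4 animals above background, it was at least 1.96-fold higher by Cy5 levels (adjusted p = 0.00051). Mmp8, the neutrophil collagenase, was higher by 0.63 ± 0.19 in NM-401 high (adjusted p = 0.012) and 0.44 ± 0.19 in Mitsui high (0.099, not called). Mmp1a, Mmp1b, Mmp20 and Mmp7 did not pass the filter, with at most 1 animal of NM-401 high above background, and Mmp27 was not analysed here. The stretch thus held genes that rose, Mmp3 that was not called, and genes near background in these lungs. Of the metalloproteinases that are not members, 8 of 17 listed were measured: 5 were called higher and 1 lower in NM-401 high, 0 in NM-401 low, 2 higher in Mitsui high and 3 higher in Mitsui low (median in NM-401 high 0.35). The 1 lower was Mmp11, at -0.30 ± 0.10 (adjusted p = 0.020). Over all features 18.4% were called higher and 16.4% lower in NM-401 high. The shares called higher were 8.95% in NM-401 low, 12.7% in Mitsui high and 10.6% in Mitsui low.

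Among 18 measured ADAM and ADAMTS enzymes, relatives of the metalloproteinases, 5 were called higher and 3 lower in NM-401 high (median -0.03). NM-401 low had 4 and 1, Mitsui high 5 and 1, and Mitsui low 4 and 2. Over all features the shares called higher and lower were 18.4% and 16.4% in NM-401 high. They were 8.95% and 7.98% in NM-401 low, 12.7% and 11.1% in Mitsui high, and 10.6% and 10.4% in Mitsui low. Adam8, a leukocyte surface protease, rose by 3.07 ± 0.16 in NM-401 high and 2.67 ± 0.16 in Mitsui high (adjusted p = 1.4e-11 and 2.9e-10). Adamts4, an aggrecanase that Timp3 inhibits, rose by 1.03 ± 0.11 in NM-401 high (adjusted p = 8.1e-08), with 2 of 5 control animals above background. Adamts8 and Adamts1 fell by 0.57 and 0.52 in NM-401 high (adjusted p = 0.0041 and 0.0023).

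Of 18 measured genes that activate proteases or hold them in check, 5 were called higher and 3 lower in NM-401 high, 2 and 2 in NM-401 low, 4 and 3 in Mitsui high, and 4 and 2 in Mitsui low (median in NM-401 high 0.22). The shares of all features, higher and lower, were 18.4% and 16.4% in NM-401 high and 8.95% and 7.98% in NM-401 low. They were 12.7% and 11.1% in Mitsui high and 10.6% and 10.4% in Mitsui low. Plau, the urokinase that makes plasmin and so starts the activation of metalloproteinase precursors, rose by 1.57 ± 0.50 in NM-401 high (adjusted p = 0.017) and 2.44 ± 0.50 in Mitsui high (0.00098). Serpine2, an inhibitor of urokinase and thrombin, rose by 0.84 ± 0.14 in NM-401 high (adjusted p = 4.7e-05). Reck, a membrane protein that inhibits metalloproteinases, fell by 0.89 ± 0.15 in NM-401 high and 0.77 ± 0.15 in Mitsui high (adjusted p = 6.9e-05 and 0.00078). It was lower in all 5 animals of each of these groups than the control mean. Pcolce2, an enhancer of procollagen processing, fell by 1.42 ± 0.19 in NM-401 high (adjusted p = 3.0e-06). Reck and Timp3, both inhibitors, were thus lower while the inhibitor Timp1 was higher.

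Of 25 matrix proteins and crosslinking enzymes, 8 were called higher and 5 lower in NM-401 high, 2 and 2 in NM-401 low, 6 and 3 in Mitsui high, and 4 and 4 in Mitsui low (median in NM-401 high 0.10). Over all features these shares were 18.4% and 16.4% in NM-401 high and 8.95% and 7.98% in NM-401 low. They were 12.7% and 11.1% in Mitsui high and 10.6% and 10.4% in Mitsui low. Spp1 (osteopontin), a matrix protein that metalloproteinases cut, rose by 4.74 ± 0.40 in NM-401 high (adjusted p = 6.4e-09) and 4.34 ± 0.40 in Mitsui high. Col3a1, a fibrillar collagen, rose by 0.96 ± 0.13 in NM-401 high (adjusted p = 3.8e-06) and 0.76 ± 0.13 in Mitsui high. Hspg2, the basement membrane proteoglycan perlecan, and Vtn (vitronectin) fell by 0.78 and 0.81 in NM-401 high (adjusted p = 2.5e-07 and 0.015). Eln, elastin itself, the substrate after which Mmp12 is named, was not called (0.18 ± 0.13, adjusted p = 0.314).

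Of 19 measured cytokines and transcription factors known to act on metalloproteinase genes, 7 were called higher and 3 lower in NM-401 high, 5 and 2 in NM-401 low, 6 and 2 in Mitsui high, and 6 and 3 in Mitsui low (median in NM-401 high 0.16). Among all features the shares were 18.4% and 16.4% in NM-401 high and 8.95% and 7.98% in NM-401 low. They were 12.7% and 11.1% in Mitsui high and 10.6% and 10.4% in Mitsui low. Atf3, a stress-induced transcription factor, rose by 2.29 ± 0.20 in NM-401 high and 1.39 ± 0.20 in Mitsui high (adjusted p = 8.9e-09 and 2.3e-05). Il6 rose by 2.15 ± 0.21 in NM-401 high (adjusted p = 4.0e-08), with 2 of 5 control animals above background. Jun, which binds AP-1 sites as a dimer with Fos proteins, fell by 1.26 ± 0.15 in NM-401 high and 0.74 ± 0.15 in Mitsui high (adjusted p = 8.6e-07 and 0.00096). The 4 Fos family genes Fos, Fosb, Fosl1 and Fosl2 had changes of 0.11, 0.16, 0.03 and 0.06 in NM-401 high, and none was called. Ets2, of the family that binds the PEA3 letters, fell by 0.51 ± 0.10 in NM-401 high (adjusted p = 0.00022).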

How the data were processed

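The deposited scanner output, from Agilent Feature Extraction 11.0.1.1 per the file headers, holds median spot and background intensity without subtraction, log10 ratios after the software's background subtraction and dye normalisation, and flags of 0 or 1 of another kind (well above background, outlier, saturated). The authors also deposited normalised log2 ratios by an unstated method, centred near 0 (array medians -0.04 to -0.018) and running the same way as the scanner ratios (correlations 0.876 to 0.909).

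In R 4.3.3 with limma 3.58.1, median signals were corrected by normexp (offset 50) and normalised by loess within arrays, without outlier spots (0.461%). Of 55681 probes, 30466 were kept that were well above background in Cy5 in at least 4 animals of 1 group. Between 45.8% and 62.1% of probes were so on each array. Symbols came from RefSeq accessions. The kept probe of highest mean intensity stood for a gene (22950 features, 14838 named). Both arrays of the Mitsui low animal run on 2 slides were averaged. Group means were fitted with lmFit and eBayes over all 25 animals (20 residual, 3.76 prior degrees of freedom), with Benjamini-Hochberg adjustment. Summed Cy5 levels came from loess followed by Aquantile. The procedure was tested on simulated data. All 10 members were named. Of each pathway list the 2 largest called rises and falls in NM-401 high were named, and for each member its 3 most alike genes. Eln, the Fos genes and the genes of the closing section were chosen after their values were seen. The members and gene lists were chosen with earlier results of these data known. Replicate numbers were not used to pair animals. Of 50 same-number pairs 12 correlated above 0.1, and without different-number pairs beside them this cannot show whether the numbers pair animals. The number of arrays limits the precision. Alternatives covered normalisation, filter, probe choice, blocks, the repeated animal and each animal left out.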

Additional observations from a re-analysis of the deposited data

Results flagged for a closer look

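Of the 50 sets of 5 animals (10 members in 5 groups), 2 held an animal far from the other 4 by Dixon's criterion, for which chance gives about 1 in 20. Mmp2 in NM-401 high animal 2 had a log2 ratio of -0.038, against 0.24 to 0.32 in the other 4 animals of its group. This is the animal whose Xist probes were not well above background. Mmp3 in NM-401 high animal 1 had a log2 ratio of -1.53, against -0.81 to -0.60 in the other 4.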

How the results depend on the processing

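Counts of called features and members kept within 1.5 times of the reported value in 528 comparisons with an alternative and moved further in 84. Median centring moved the features called to 1065, 62, 121 and 74 in NM-401 high, NM-401 low, Mitsui high and Mitsui low and the members to 5, 2, 2 and 2. It gave 8 features and 0 members for the NM-401 dose step, and 0 features for the materials at the high dose and for the difference of the steps. The scanner software's ratios left 1 member in the NM-401 step, 39 features for the materials at the high dose, 1 at the low dose and 16 for the difference of the steps. The authors' values gave 14 features for that difference. Without a filter 2 members were called in the NM-401 step, 94 features between materials at the high dose and 3 for the difference of the steps. With slide as a block 1564 features were called in the NM-401 step, 11 in the Mitsui XNRi-7 step, 532 between materials at the high dose and 145 for the difference of the steps. The replicate block gave 1 feature in the Mitsui XNRi-7 step and 1 for the difference of the steps. The main fit did not treat same-number animals as paired. Under that block Mmp2 in NM-401 high, Timp2 in NM-401 low, Timp4 in Mitsui low and Mmp14 in the NM-401 step gained a call. Timp1 in that step lost it. Leaving out single animals gave 182 to 1229 features and 0 to 5 members in the NM-401 step, 0 to 3 features in the Mitsui XNRi-7 step, 6 to 919 features and 0 to 2 members between materials at the high dose, 0 to 3 features at the low dose, and 1 to 197 features and 0 to 1 members for the difference of the steps.

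Over all members and comparisons, 16 of 90 values changed sign under median centring. The mean of the probes changed 6 and the scanner software's ratios 4. At most 5 changed when a single animal was left out. A called value changed sign only with the mean of the probes (1 value). Value by value, all members were followed against control, but only Mmp12, Mmp13, Mmp14, Mmp19 and Timp1 in the other comparisons. Among the values so followed, the directions of 6 reversed. The Mitsui XNRi-7 step of Mmp19 (-0.02) became 0.0046 with the scanner software's ratios, 0.016 with median centring, 0.015 with the first array of the repeated animal and -0.125 to 0.144 with single animals left out. That of Mmp14 ran from -0.253 to 0.00011 with single animals left out. Mmp2 in Mitsui high became -0.026 with median centring. The mean of the probes turned Timp2, called lower at -0.47 in NM-401 high and uncalled at -0.25 in Mitsui high and -0.24 in Mitsui low, to 0.0925, 0.0028 and 0.057, none called, because its probes moved in opposite directions. Elsewhere the cause was not tested. Requiring signal on all arrays left out Mmp12 and Mmp13, which were near background in control. For them the control level, and so the fold, is the least certain value.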

Other observations

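Epithelial genes outside the protease lists also changed in lungs in which the metalloproteinases rose. Of 15 measured alveolar and airway markers, 7 were called higher and 3 lower in NM-401 high, and 6 higher and 1 lower in Mitsui high. Over all features the shares were 18.4% and 16.4% in NM-401 high and 12.7% and 11.1% in Mitsui high. Muc5b, a gel-forming mucin, was higher by 3.61 in NM-401 high and 3.53 in Mitsui high. Lamp3, a lamellar body gene of alveolar type 2 cells, was higher by 0.86 and 0.61. Aqp5, a water channel of alveolar type 1 cells, was lower, at -0.66 and -0.46. These genes were picked after their values were seen and do not stand for the other markers of their cell types. The summed Cy5 level of the 15 markers ran from 1401000 to 2437000 in NM-401 high and 1519000 to 2917000 in Mitsui high. In control it ran from 1641000 to 2311000, overlapping both.

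Of 9 measured neutrophil markers 1 was called higher in NM-401 high and 2 in Mitsui high, where 18.4% and 12.7% of all features were called higher. The 1 in NM-401 high was Ltf, lactoferrin, which epithelium also makes, at 3.48, while S100a8 and S100a9 had 0.38 and -0.31 and were not called. Over all features 16.4% were called lower in NM-401 high and 11.1% in Mitsui high. Of 8 mesothelial markers 1 was called higher and 4 lower in NM-401 high, with Gpm6a at -1.16. Heart muscle markers had medians of -0.92 in NM-401 high and -0.51 in Mitsui high, with 1 and 0 of 12 called lower, and a summed Cy5 level of 4445 to 27980 in NM-401 high, against 8997 to 74590 in control. Of 7 fat cell markers 1 was called lower in NM-401 high, Cidec, at -2.06.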
